A study of Bos taurus with 6 samples.

Results

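START proteins carry a lipid-binding pocket, the steroidogenic acute regulatory protein-related lipid transfer domain, in which cholesterol, a phospholipid or a ceramide is moved between membranes. The 8 genes described here were taken from the deposited table by their symbols, STAR, STARD3, STARD3NL, STARD4, STARD5, STARD7, STARD10 and STARD13, out of 36075 genes listed. Each symbol matched a single Ensembl identifier. STARD3NL is a START gene by name only, because its protein shares the membrane-anchoring MENTAL domain of STARD3 and has no START domain. In steroid-making cells STAR brings cholesterol to the inner mitochondrial membrane, where CYP11A1 makes pregnenolone from it. STARD3 and STARD3NL sit in late endosomes, STARD4 and STARD5 are soluble sterol carriers, and STARD7 and STARD10 carry phosphatidylcholine.

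The blastocysts came from oocytes of slaughterhouse ovaries, matured for 22 h with 1e-07 mol/L melatonin (MT) or without it (control), then fertilized and cultured in vitro. The paper gives the concentration and the time, whereas the labels give the treatment and a replicate number, and name no allele or transgene. Each of the 3 libraries per group was a pool of 3 blastocysts, and the paper places the replicates of a group in separate production runs. Values are in TPM, a unit in which the reads of a gene are divided by its length and scaled to the library, so levels of different genes can be set side by side. The listed values summed to between 936783 and 937698 TPM in control and between 912686 and 913707 TPM in MT-treated libraries, not to 1 total. Because a blastocyst pool is bulk RNA, fewer cells that express a gene and less RNA per cell cannot be told apart.

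The groups differed across the whole table, and this bears on every gene below. Libraries correlated at 0.991 to 0.999 within groups and at 0.544 to 0.546 between them. Why the libraries of a group were so alike was not tested. From 8854 to 8953 genes were above 0 TPM in the control libraries and from 14372 to 14408 in the MT-treated libraries. Genes of general cell function were among those at 0 throughout control, such as PTDSS1, MBTPS2 and TAMM41, and with no counts a 0 below means only that a gene is listed at 0. Of the 11953 genes with at least 1 TPM in at least 3 libraries, 95.7% passed an adjusted p-value under 0.05 (limma on log2(TPM + 1), Benjamini-Hochberg adjustment over all tested genes), 61.6% higher and 34.1% lower in MT-treated blastocysts. These were 7367 and 4071 genes, against 5550 and 5311 with quantile normalization and 8412 and 3038 with median centring. Centring removed a median shift of -0.48 on the log2 scale, taken over 5988 genes and not over all tested genes. Over all tested genes the median log2 fold change was 1.12, of the opposite sign, and centring raised it further. Trophectoderm markers, led by the keratins KRT8 and KRT18, were abundant, with 10 genes summing to between 11548 and 11893 TPM in control and between 10673 and 11026 TPM in MT-treated libraries. However, CDX2 and NANOG, which define the trophectoderm and the inner cell mass, were at 0 in each control library, and SOX2 was at 0, 0.02 and 0 TPM there. In the MT-treated libraries the lowest values of CDX2, NANOG and SOX2 were 15.03, 8.23 and 5.88 TPM. Other markers of the same lists went the opposite way, as the trophectoderm factor ELF3 fell from 57.7 ± 2.80 to 11.3 ± 0.753 TPM, and KLF17, listed for the inner cell mass, had 44.6 ± 1.76 TPM in control and 5.53 ± 0.327 TPM with MT (SD, n = 3 each, adjusted p = 7.86e-08 and 1.40e-08 by limma). TFAP2A, another trophectoderm factor, was at 36.1 ± 3.99 TPM in control and 0.490 ± 0.0520 TPM with MT (SD, n = 3 each), and since it passed the level filter only through its control libraries it had to be lower. POU5F1, a pluripotency factor, was at 189.8 ± 1.49 and 193 ± 1.83 TPM (SD, n = 3 each, adjusted p = 0.223 by limma). With median centring 6 of the 7 tested inner cell mass markers were called higher, POU5F1 among them. Markers of the labelled stage thus differed between the groups in both directions, and their part in the results below was not tested.

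The START genes changed in composition far more than in total. The summed TPM of the 8 genes lay at 197, 194 and 194 for control and at 204, 198 and 205 for MT-treated blastocysts, a difference in means of 7.04 TPM. With the libraries rescaled to equal sums, an alternative chosen after seeing the data, the means were 208 ± 2.05 and 221 ± 3.77 TPM (SD, n = 3 each), a difference of 13.2 TPM. STARD10 alone made up 80.7% ± 0.709 (SD, n = 3) of that sum in control blastocysts and 25.3% ± 0.408 (SD, n = 3) in MT-treated blastocysts. STARD4 went from 17.8% ± 0.535 to 24.7% ± 1.05, and STARD3NL from 1.54% ± 0.346 to 21.9% ± 1.13 (SD, n = 3 each). STARD7 made up 19.7%, 19.5% and 19.8% of the sum in the MT-treated libraries and none of it in control. Neither these shares nor the sum overlapped between the groups, as 96.1% of all tested genes did not (exact permutation test, two-sided, p = 0.1, the smallest p that 3 libraries against 3 allow, and 0.1 after adjustment over 23 such measures). Without STARD3NL, the 7 genes that do encode a START domain summed to 192 ± 2.65 TPM in control and 157.7 ± 3.38 TPM in MT-treated blastocysts (SD, n = 3 each).

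**Figure D1:**
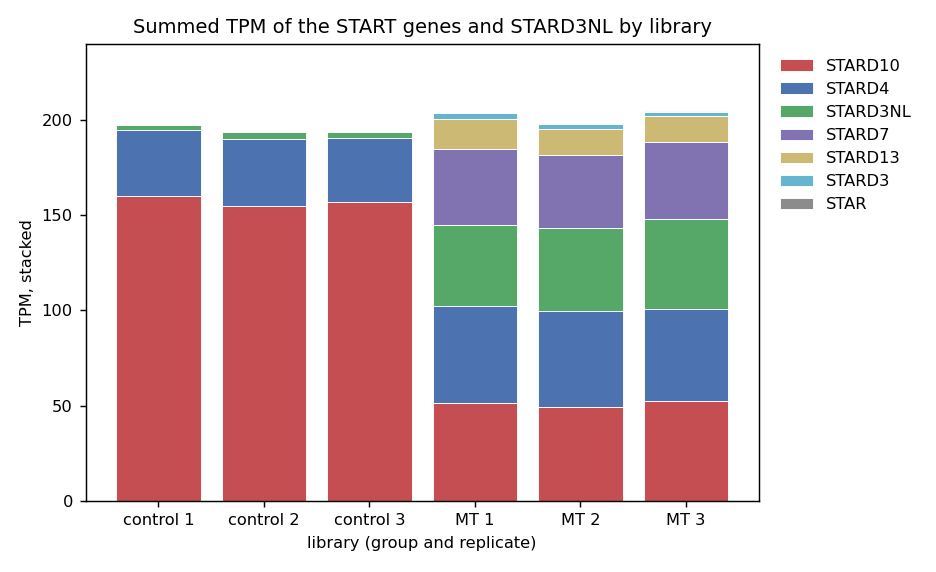
Stacked bars give the TPM of each gene in each of the 6 libraries, named by group and replicate on the x axis, and STARD5 is left out because it is at 0 throughout. The bars reach similar heights, from 194 to 205 TPM, while STARD10 takes most of each control bar and about as much as STARD4 in each MT-treated bar.

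All 6 of the genes that reached the level for testing passed the threshold, 5 higher and 1 lower, beside 95.7% of all tested genes. That share is near the background and is no result about these genes. STARD3, STARD7 and STARD13 entered the test only through their MT-treated libraries and had to differ. STARD3NL, STARD4 and STARD10 were at 1 TPM or more in all 6 libraries, and STAR and STARD5 did not reach the level for testing. Without that filter STAR was called as well, which made 7 called genes, 6 of them higher. The study itself chose STAR, STARD3, STARD7 and STARD10 on these libraries, which leaves their directions without independent support.

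STAR, the carrier of the acute steroid response (ENSBTAG00000033345), was barely listed. Its MT-treated values were 0.09, 0.12 and 0.17 TPM and its control values all 0, so the groups did not overlap but every value lay under 1 TPM. In the fit without the level filter its log2 fold change was 0.17 on the TPM + 1 scale (adjusted p = 0.00163 by limma), a gene that could enter only through its MT-treated values. Among the genes above 0 in its own library, STAR stood at the 8.58th to the 11.9th percentile. CYP11A1 (ENSBTAG00000006934), which acts on the cholesterol that STAR delivers, was by contrast well expressed, with 78.85, 77.55 and 79.64 TPM in control and 82.41, 80.87 and 84.05 TPM in MT-treated libraries. The CYP11A1 difference was a log2 fold change of 0.07 (95% interval 0.01 to 0.12, adjusted p = 0.0303 by limma), which missed the threshold when control replicate 1 or 2 or MT-treated replicate 1 or 3 was left out, with adjusted p-values up to 0.0910, and without the trend in the fit (0.0520). Scaling moved it further, to 0.55 with median centring and 0.35 with quantile normalization (adjusted p = 5.16e-07 and 2.75e-05 by limma).

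Granulosa and cumulus cells of the follicle are a classical site of STAR expression, and a list of 14 cumulus and granulosa markers was checked for that reason. Of these, 8 were at 0 in all libraries, including the defining markers FOXL2, INHA, NR5A1, HAS2 and AMHR2. The list summed to between 149.9 and 157 TPM in control and between 120.6 and 123 TPM in MT-treated libraries, nearly all of it from HSD3B1 and FSHR. HSD3B1 is also an enzyme of steroid synthesis and had 132 to 139.9 TPM in control and 104.7 to 106 TPM in MT-treated libraries. FSHR, the receptor for follicle-stimulating hormone, had 17.2 to 19.2 TPM in control and 15.03 to 17.1 TPM in MT-treated libraries. Their log2 fold changes of -0.36 and -0.17 (adjusted p = 1.40e-05 and 0.0318 by limma) turned to 0.12 and 0.31 with median centring and were -0.083 and -0.83 with quantile normalization. FSHR lost its call in 6 of the 15 alternatives, among them the replicate block (adjusted p = 0.0600 by limma).

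STARD3 (ENSBTAG00000011729) ties late endosomes to the endoplasmic reticulum by binding the anchor proteins VAPA, VAPB and MOSPD2. It was at 0.02, 0 and 0.03 TPM in control and at 3.03, 2.75 and 2.16 TPM in MT-treated libraries. The groups were far apart relative to their spread, but the control values were at or beside 0, and the log2 fold change of 1.84 on the TPM + 1 scale (standard error 0.09) understates a change of so low a gene. With quantile normalization, which gives each library the same distribution, the sign turned to a log2 fold change of -0.59. In the MT-treated libraries STARD3 stood between the 26.5th and the 29.5th percentile of the genes above 0.

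STARD3NL (ENSBTAG00000038795) builds the same kind of contact without a START domain. Its TPM was 2.27, 3.49 and 3.26 in control and 42.39, 43.48 and 47.18 in MT-treated libraries. The mean rose from 3.01 ± 0.648 to 44.35 ± 2.51 TPM (SD, n = 3 each), 14.8 times the control mean. On the log2(TPM + 1) scale the change was 3.51 (95% interval 3.20 to 3.83, adjusted p = 4.01e-07 by limma), and 78.7% of tested genes had a lower log2 fold change. Under the 15 alternatives it lay between 2.73, with quantile normalization, and 3.99. Its percentile among the genes above 0 was 29.4 ± 1.39 in control and 82.3 ± 0.867 with MT (SD, n = 3 each), taken over fewer genes in control than in MT-treated libraries. Within each MT-treated library STARD3NL had 14.0 to 21.8 times the TPM of STARD3.

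STARD4 (ENSBTAG00000045886), a small cytosolic carrier that moves cholesterol to the endoplasmic reticulum and is a known target of SREBF2, had the smallest change of the START genes tested, except with quantile normalization, where STARD3 changed less, and without the level filter, where STAR did. It had 34.91, 35.5 and 33.5 TPM in control and 51.14, 50.49 and 48.11 TPM in MT-treated libraries. The rise to 1.44 times the control mean was a log2 fold change of 0.51 (95% interval 0.43 to 0.60, adjusted p = 1.23e-05 by limma). Only 17.2% of tested genes had a smaller change in either direction. STARD4 kept its direction and its call under each of the 15 alternatives tried, with log2 fold changes between 0.49 and 0.99. STARD5 (ENSBTAG00000010964), a close relative, which binds cholesterol in the cytosol, was at 0 in all 6 libraries.

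STARD7 (ENSBTAG00000018372), which brings phosphatidylcholine to mitochondria, was not listed above 0 in any control library. In the MT-treated libraries it reached 40.2, 38.64 and 40.54 TPM, close to the 80.6th percentile of detected genes. No fold is given, since there is no control value to divide by. Values of 0 throughout control were common at this level, as 862 of the 3611 genes with a mean of 20 to 100 TPM in MT-treated blastocysts (23.9%) shared them.

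STARD10 (ENSBTAG00000015182), a carrier of phosphatidylcholine and phosphatidylethanolamine, was the only 1 of the tested genes that fell, apart from STARD3 with quantile normalization. It had 160.11, 154.69 and 157.24 TPM in control and 51.28, 49.26 and 52.54 TPM in MT-treated libraries. The mean fell from 157 ± 2.71 to 51.0 ± 1.65 TPM (SD, n = 3 each), so control blastocysts had 3.08 times the MT-treated level. The log2 fold change was -1.61 (95% interval -1.68 to -1.53, adjusted p = 1.59e-08 by limma), and it stayed between -1.63 and -1.13 under the 15 alternatives. Its percentile was 89.0 ± 0.120 among the genes above 0 in control and 84.4 ± 0.498 among the larger number above 0 with MT (SD, n = 3 each), so the percentiles give its place in each group and not its change.

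STARD13 (ENSBTAG00000021815) reached 15.5, 13.25 and 13.83 TPM with MT and was listed at 0 in control. Among genes with a mean of 5 to 20 TPM in MT-treated blastocysts, 2113 of 4448 (47.5%) shared that pattern of 0 throughout control, beside 33.8% of all tested genes.

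**Figure D2:**
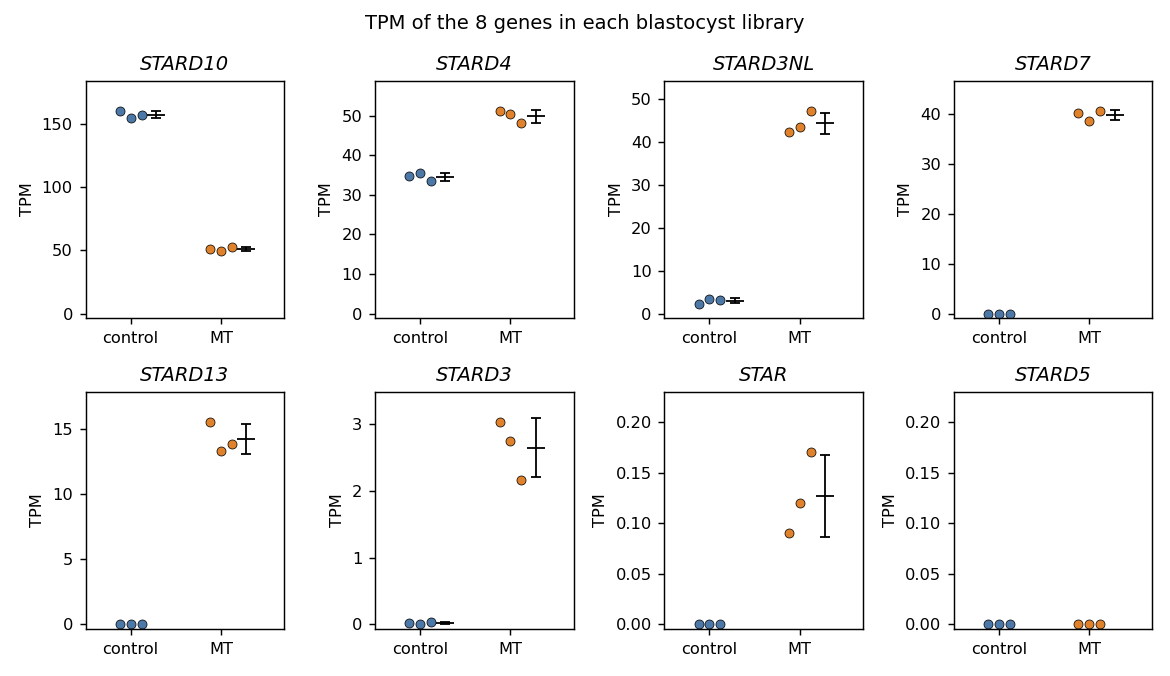
Each panel plots the TPM of a gene in the 3 control and the 3 MT-treated libraries as points, with the mean and SD as a bar beside groups that are not all at 0, and each panel has its own y axis from 0. STARD10 alone is lower in the MT-treated libraries, STAR stays under 1 TPM, and STARD5 is at 0 in each library.

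**Figure D3:**
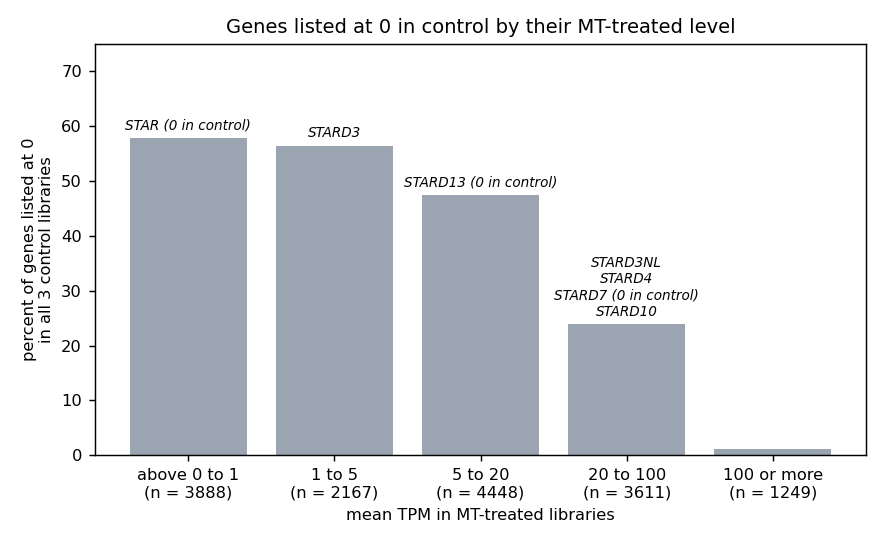
Bars give the percent of genes at 0 in all 3 control libraries, by the mean TPM in the MT-treated libraries on the x axis, with the number of genes under each bar and the START genes of that level named above it. The share falls from 57.8% of genes under 1 TPM to 1.12% of genes at 100 TPM or more.

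The order of the levels differed between the groups. In control blastocysts STARD10 came first, then STARD4 and STARD3NL, each apart from the next, and below them STARD3 overlapped with the 4 genes at 0. In MT-treated blastocysts STARD10 and STARD4 overlapped, with ranges of 49.26 to 52.54 and 48.11 to 51.14 TPM. STARD10 had 4.55 ± 0.172 times the TPM of STARD4 in control and 1.02 ± 0.0609 times in MT-treated libraries (SD, n = 3 each, exact permutation test, two-sided, p = 0.1). Below them STARD3NL, STARD7, STARD13, STARD3, STAR and STARD5 followed in that order, each apart from its neighbours. Thus 3 genes were at 1 TPM or more in each control library and 6 in each MT-treated library.

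The rest of the START family was listed for 7 of 9 symbols searched. PCTP, the phosphatidylcholine transfer protein, was at 17.44, 16.82 and 17.39 TPM in MT-treated libraries, and ACOT11, a thioesterase with a START domain, was at 13.11, 11.09 and 11.73 TPM. STARD8, a relative of STARD13, was at 5.51, 4.32 and 6.25 TPM, and these 3 genes were at 0 in all control libraries. CERT1, which takes ceramide from the endoplasmic reticulum to the Golgi, had a mean of 52.8 ± 0.780 TPM in control and fell to 19.1 ± 0.831 TPM (SD, n = 3 each), or by 1.42 on the log2 scale (adjusted p = 8.04e-08 by limma). DLC1, a relative of STARD13 and STARD8, had a mean of 31.6 ± 0.609 TPM in control and fell to 17.2 ± 0.602 TPM (SD, n = 3 each), or by 0.84 on the log2 scale (adjusted p = 7.94e-07 by limma). STARD6 and ACOT12 were at 0 in all 6 libraries.

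The family was also summed over 5 structural subgroups, formed after the values were seen. STARD10 and CERT1, which fell, and STARD7 and PCTP, listed at 0 in control, together summed to 210 ± 1.93 TPM in control and 127 ± 3.77 TPM in MT-treated blastocysts (SD, n = 3 each). DLC1, which fell, and STARD13 and STARD8, listed at 0 in control, together summed to 31.6 ± 0.609 TPM and 36.75 ± 1.88 TPM (SD, n = 3 each). In the other 3, STARD4 was the only gene that could have been called lower on the listed TPM, although quantile normalization called STARD3 lower. STARD4, STARD5 and STARD6 summed to 34.6 ± 1.03 and 49.9 ± 1.595 TPM, STAR and STARD3 to 0.0167 ± 0.0153 and 2.77 ± 0.404 TPM (SD, n = 3 each), and ACOT11 and ACOT12 to 0 in control and 11.98 ± 1.03 TPM with MT (SD, n = 3). Among all tested genes 34.1% were lower and 33.8% were at 0 throughout control, so genes of both kinds were common. Over the 8 genes and the 7 others, the total was 279 ± 0.922 TPM in control and 273 ± 6.55 TPM in MT-treated blastocysts (SD, n = 3 each), and 298.1 ± 0.849 and 298.8 ± 7.01 TPM with the libraries rescaled to equal sums, where the groups overlapped.

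**Figure D4:**
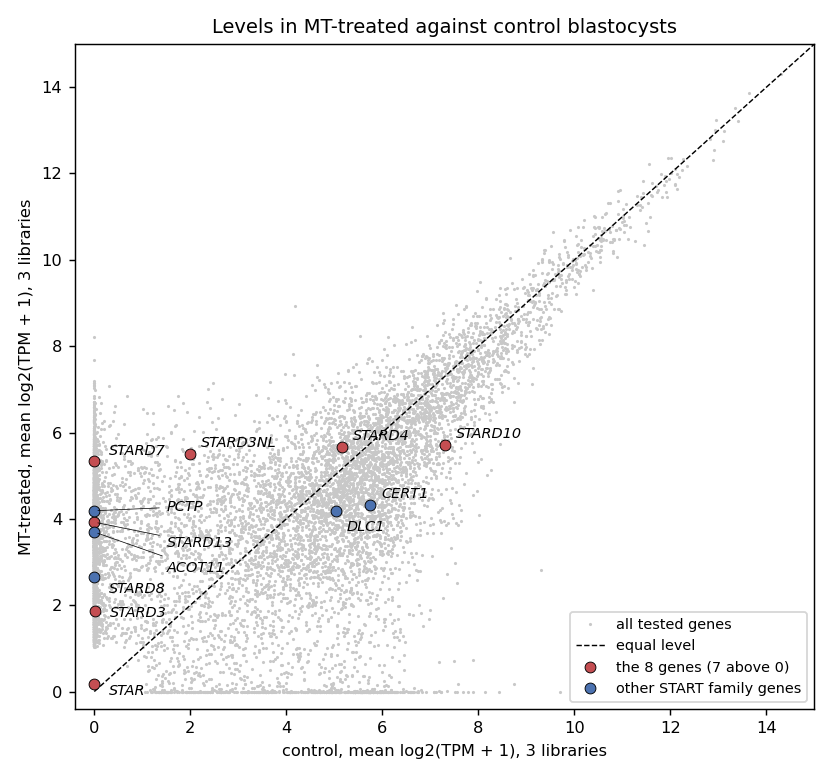
Each grey point is a tested gene, with its mean log2(TPM + 1) over the 3 control libraries on the x axis and over the 3 MT-treated libraries on the y axis, and the dashed line marks equal levels. STARD10, CERT1 and DLC1 lie below the line, STARD4 and STARD3NL above it, and STARD7, STARD13, PCTP, ACOT11 and STARD8 on the left edge, where control is 0.

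With only 6 libraries in 2 groups, many genes share a profile, and the nearest neighbours of a gene are a description. By the Euclidean distance of log2(TPM + 1) over the 6 libraries, SLC2A8 lay nearest to STARD7 (distance 0.0124) and NAA16 nearest to STARD13 (0.0223), each also at 0 in control. SPATA24 (0.0531) and GPN2 (0.0392) came next for the same genes. RBMS3 (0.153) and CAMLG (0.190) were nearest to STARD10, and PTRH2 (0.162) and MGST1 (0.182) to STARD4. RNF4 (0.355) and RFXANK (0.358) were nearest to STARD3NL, and ARMC2 (0.116) and EIF5A2 (0.1298) to STARD3.

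Around these carriers, 7 lists of partner and pathway genes were counted, beside 61.6% higher and 34.1% lower of all tested genes and a median log2 fold change of 1.12 over all of them. Of all tested genes 42.5% were under 1 TPM in all control libraries. Such genes passed the level filter only through the MT-treated libraries. On the listed TPM they had to be higher, though not with quantile normalization, so the counts and medians are descriptions. Genes that entered this way were 7 of 17 for sterol transfer at membrane contacts and 3 of 9 for phosphatidylcholine and phosphatidylethanolamine synthesis. They were 3 of 12 for sphingolipid synthesis, and 1 or 2 genes in each other list. Sterol transfer at membrane contacts had 11 of 17 tested genes higher and 5 lower, with a median log2 fold change of 0.797, against 8 higher and 8 lower with quantile normalization and 13 higher and 4 lower with median centring. MOSPD2, an anchor that STARD3 and STARD3NL bind, fell from 49.9 ± 0.615 to 8.25 ± 0.375 TPM (SD, n = 3 each, adjusted p = 6.84e-09 by limma), whereas the anchor VAPA was at 234 ± 2.16 and 210 ± 4.03 TPM (SD, n = 3 each). The VAPA log2 fold change of -0.15 (adjusted p = 0.000306 by limma) turned to 0.33 with median centring and to 0.03 with quantile normalization. The third anchor, VAPB, rose from 16.0 ± 0.347 to 32.6 ± 1.41 TPM (SD, n = 3 each, adjusted p = 6.87e-07 by limma). The cholesterol exporters of late endosomes NPC2 and NPC1 fell, by 1.48 and by 0.64 on the log2 scale (adjusted p = 1.53e-07 and 3.82e-05 by limma). The oxysterol-binding relatives OSBPL10 and OSBPL2 were at 142, 135 and 128 TPM and at 26.96, 27.83 and 27.53 TPM in MT-treated libraries, and at 0.87, 0 and 0 TPM and 0 throughout in control.

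In mitochondrial cholesterol import and side-chain cleavage, 6 of 14 genes were higher and 7 lower, with a median log2 fold change of -0.08. TSPO, a cholesterol-binding protein of the outer membrane, was at 5.34, 4.5 and 4.37 TPM in MT-treated libraries and at 0 in control. ACBD3, which binds TSPO, had a log2 fold change of 1.58 (adjusted p = 1.18e-06 by limma) that turned to -0.74 with quantile normalization. VDAC3 and ATAD3A, a channel of the outer membrane and an ATPase of the inner membrane, fell by 0.80 and 0.85 on the log2 scale (adjusted p = 6.08e-08 and 7.04e-06 by limma). Their log2 fold changes were -0.32 and -0.37 with median centring and -0.54 and -1.52 with quantile normalization. In this list 11 genes were higher and 2 lower with median centring, and 5 were higher and 9 lower with quantile normalization.

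For lipid transfer between the mitochondrial membranes, 5 of 10 genes were higher and 4 lower, with a median log2 fold change of 0.06, and 6 were higher and 4 lower with quantile normalization (median 0.25) and with median centring (0.54). PARL, the protease that cleaves STARD7 during its import, fell from 245, 242 and 239.6 TPM in control to 102.6, 100.3 and 99.55 TPM (adjusted p = 6.97e-09 by limma). PTPMT1, an enzyme of cardiolipin synthesis, fell from 95.2 ± 4.24 to 46.6 ± 2.88 TPM (SD, n = 3 each, adjusted p = 3.43e-06 by limma). PGS1 and TAMM41, which act in the same pathway, were at 0 in control and at 8.4, 7.64 and 8.75 TPM and 24.08, 26.07 and 25.44 TPM in MT-treated libraries.

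The synthesis of phosphatidylcholine and phosphatidylethanolamine, the cargo of STARD7 and STARD10, had 6 of 9 genes higher and 3 lower, with a median log2 fold change of 1.55, and 7 were higher with quantile normalization (2 lower) and with median centring (1 lower). CHPT1, which makes phosphatidylcholine, and PTDSS1, which makes phosphatidylserine, were at 0 in control and at 13.1 to 13.4 and 13.15 to 13.8 TPM in MT-treated libraries. The kinases CHKB and ETNK1, which phosphorylate choline and ethanolamine, fell by 2.24 and 0.50 on the log2 scale (adjusted p = 1.76e-08 and 9.69e-06 by limma). With median centring ETNK1 was at -0.017 and no longer called (adjusted p = 0.634 by limma), and with quantile normalization it was at -2.40 (adjusted p = 2.65e-08 by limma). In sphingolipid synthesis, upstream and downstream of CERT1, 6 of 12 genes were higher and 5 lower, with a median of 0.106. Quantile normalization gave 8 higher and 4 lower (median 0.33) and median centring 9 higher and 3 lower (0.59). CERS5, a ceramide synthase, was at 0 in control and at 37.9, 35.15 and 36.97 TPM in MT-treated libraries, and SGMS1, which turns ceramide into sphingomyelin at the Golgi, had 0.05, 0 and 0 and then 25.7, 25.9 and 26.1 TPM. DEGS1 and CERS3, which act in ceramide synthesis, fell by 1.14 and 1.52 on the log2 scale (adjusted p = 2.67e-09 and 1.28e-07 by limma).

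Among phosphatidylinositol and SEC14 transfer genes, which move lipids by unrelated folds, 2 of 7 were higher and 4 lower, with a median of -0.38. SEC14L4 was at 10.2, 15.6 and 11.3 TPM in control and at 0 in the MT-treated libraries, and CLVS2 was at 0 in control and at 14.48, 13.71 and 15.82 TPM in MT-treated libraries. PITPNM1 rose from 7.38 ± 0.0252 to 18.9 ± 0.526 TPM (SD, n = 3 each, adjusted p = 7.23e-08 by limma). PITPNB had a log2 fold change of -0.44 (adjusted p = 1.65e-05 by limma) that was 0.04 and no longer called with median centring and -1.02 with quantile normalization (adjusted p = 7.65e-06 by limma). For this list median centring gave 4 genes higher and 1 lower, and quantile normalization 2 higher and 3 lower.

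The sterol response that controls STARD4 had 6 of 14 genes higher and 7 lower, with a median of -0.23. With median centring 7 were higher and 5 lower (median 0.25), and with quantile normalization 5 higher and 9 lower (median -0.91). SREBF2, the transcription factor of cholesterol genes, rose from 3.38 ± 0.333 to 25.1 ± 4.22 TPM (SD, n = 3 each, adjusted p = 2.46e-06 by limma). Its escort SCAP was at 0, 0.08 and 0.02 TPM in control and at 32.38, 35.49 and 34.59 TPM in MT-treated libraries. MBTPS2, the protease that releases it, varied widely in the MT-treated libraries, at 6.49, 17.03 and 25.01 TPM against 0 in control. SREBF1, a related factor, fell by 1.78 on the log2 scale (adjusted p = 9.54e-07 by limma), and INSIG1, which retains SCAP, had 17.8 ± 0.121 TPM in control and 6.62 ± 0.0839 TPM with MT (SD, n = 3 each, adjusted p = 3.13e-08 by limma).

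**Figure D5:**
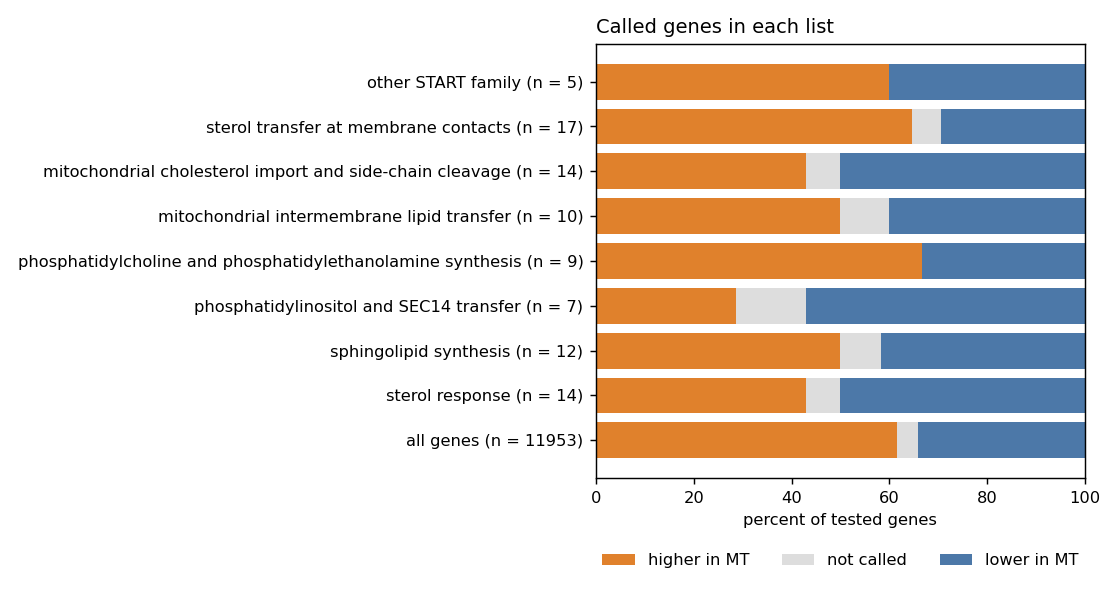
Bars give the percent of the tested genes of each list that were higher, not called or lower with MT (threshold 0.05 on limma's adjusted p-value), with the number of tested genes in brackets. The bottom bar gives all 11953 tested genes, of which 61.6% were higher and 34.1% lower.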

How the data were processed

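Bovine blastocyst RNA was compared between 3 control and 3 MT-treated libraries, grouped by the sample labels, with all 6 columns matched by the labels' descriptions. The authors deposited TPM per gene, from reads put through quality control with fastp and FastQC, mapped by STAR and counted by featureCounts. The step from counts to TPM and the library kit are uncertain, because the paper names Smart-seq2 and the labels a TruSeq kit. The paper gives the build as ARS-UCD1.3, the submitters' processing notes as ARS-UCD1.2. The RefSeq table at hand is of another assembly, so no coordinates are printed, and sequences were not analysed here. TPM holds no depth, and no counting interval is given.

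The table was fitted whole with limma 3.58.1 in R 4.3.3 (lmFit and eBayes with trend) on log2(TPM + 1), for genes with at least 1 TPM in at least 3 libraries, with Benjamini-Hochberg adjustment at 0.05. This replaces the study's test, which needs counts. Single values per library were compared by exact permutation tests (scipy 1.17.1). The fit was tested on simulated data, in which few genes were changed and none was set to 0 throughout a group, unlike these data. Genes and lists were chosen with earlier results of these data known, the lists from general knowledge. Named are the 8 genes, the other START genes, 6 partners, the 2 highest and 2 lowest called genes of each list, and the 2 nearest genes of each tested gene. CDX2, NANOG, SOX2, POU5F1, KLF17, TFAP2A, ELF3, FN1, COL4A1, VAPB, HSD3B1 and FSHR were named after their values were seen. Alternatives were adding 0.1 in place of 1, dropping the filter or raising it to 5 TPM, genes above 0 in all libraries, quantile normalization, median centring, rescaling to equal sums, eBayes without trend, a replicate block and each library left out. A list and a partner in it are not reported here.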

Additional observations from a re-analysis of the deposited data

How the results depend on the processing

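STARD3NL, STARD4 and STARD10 kept their direction and call under the 15 alternatives tried. With only genes above 0 in all 6 libraries, 6440 genes were called, 2814 of them higher, and of the START genes 3 were called, 2 of them higher, because genes at 0 in control are left out. Quantile normalization made 2 START genes lower, since STARD3 went to -0.59, and it turned ACBD3 to -0.74 and VAPA to 0.030. Median centring turned VAPA to 0.33, PITPNB to 0.041, HSD3B1 to 0.117 and FSHR to 0.307, and took ETNK1 to -0.017. FSHR also lost its call with the replicate block (adjusted p = 0.0600 by limma), with libraries rescaled to equal sums (0.0683) and without control replicate 2 or 3 or MT-treated replicate 2 or 3 (up to 0.0957). Median centring removed the same shift of -0.48, the median over 5988 genes, from each log2 fold change, and its changes of sign are that arithmetic. The cause of the changes of sign with quantile normalization was not tested. Counting only genes with at least 1 TPM as detected moved the percentile difference of STARD4 from 24.0 to 32.0 and that of STARD10 from -4.64 to -5.37. These differences are between places in gene sets of unequal size and do not measure a change of the gene. Leaving out a library gave 11336 to 11380 called genes, with 6 START genes called each time, and a difference in the summed TPM of 5.80 to 9.07, or of -8.72 to -2.76 with the 7 other family genes added. With the libraries rescaled to equal sums, chosen after seeing the data, these differences were 13.2 and 0.688 TPM in place of 7.04 and -6.52.

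Replicate numbers showed no pairing of the libraries, which does not exclude it. In the paper the oocytes of a run were pooled and split over all treatments, so a control and an MT-treated library may share a run. Deviations from the group means correlated across genes at -0.0115, -0.000679 and 0.0588 for the same numbers, and not every library correlated best with its own number. The fit with the replicate block called 11461 genes and the same number of START genes, 6. TPM keeps no counts, so the depth behind the 0 values is unknown.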

Other observations

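The protein-coding genes beside the START genes on their chromosomes, up to a pair on each side in the gene order of RefSeq on ARS-UCD2.0, were looked up after the values were seen. Of 30 such genes 29 had a row in the table, and 14 reached the level for testing, 9 of them higher and 5 lower, beside 61.6% higher and 34.1% lower of all tested genes. BAG4, beside STAR, and PDS5B, beside STARD13, were at 0 in control, entered only through the MT-treated libraries and had to be higher. The pair on each side of STARD3 (NEUROD2 and PPP1R1B, TCAP and PNMT) were at 0 in all 6 libraries. STARD4 has neighbours on a single side in this order. The nearer, CAMK4, had 0.65, 4.53 and 5.71 TPM in control and 32.22, 35.27 and 38.48 TPM in MT-treated libraries, higher like STARD4, whereas the next, WDR36, had 43.3, 45.4 and 42.2 TPM in control and 6.55, 6.56 and 7.45 TPM in MT-treated libraries. Of the neighbours of STARD10, ARAP1 had 6.58, 6.59 and 6.33 TPM in control and 10.8, 12.9 and 11.9 TPM in MT-treated libraries, FCHSD2 had 137, 136 and 129 TPM and 148, 151 and 165 TPM, and PDE2A and ATG16L2 did not reach the level for testing.

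Blastocyst markers were counted as well. Of 6 hypoblast markers tested, 4 were under 1 TPM in all control libraries and entered only through the MT-treated libraries, so that they had to be higher. The other 2 rose, FN1 from 206 ± 1.49 to 461 ± 3.21 TPM and COL4A1 from 18.3 ± 0.390 to 30.2 ± 0.196 TPM (SD, n = 3 each, adjusted p = 2.07e-09 and 5.77e-07 by limma). Of inner cell mass markers 4 of 7 were higher and 1 lower, and of trophectoderm markers 7 of 10 were higher and 3 lower (limma). These shares stand beside 61.6% higher and 34.1% lower of all tested genes. The counts were 4 and 2, and 6 and 3, with quantile normalization, and 6 and 1, and 8 and 2, with median centring. Among them 3 inner cell mass markers and 1 trophectoderm marker had likewise entered only through the MT-treated libraries. The trophectoderm marker TFAP2A, 1 of the 3 lower, entered only through the control libraries.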
